A study of Homo sapiens with 6 samples.

Results

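The metalloproteases of the extracellular space and cell surface, and their tissue inhibitors, were described in Hep3B, an established line of human liver cancer cells, with and without silencing of SDHB. Members were all genes whose symbol is MMP, ADAM, ADAMTS, ADAMTSL or TIMP followed by a number, which gave 71 of the 19775 genes named on the array: 22 MMP, 22 ADAM, 18 ADAMTS, 5 ADAMTSL and 4 TIMP genes. Antisense and read-through genes named after a member were left out, as were 2 probe sets annotated to several genes. Pseudogenes whose own symbol has this form were kept, namely ADAM3A, ADAM3B, ADAM5 and ADAM6, and all were too dim to be tested. RNA was measured on 6 Affymetrix arrays in 2 groups, 3 arrays (A, B and C) of the control, Hep3B with plasmid pU6, clone 2 (pU6-2), and 3 of clone D20, Hep3B stably carrying the plasmid siSDHB. Both lines were selected in G418 at 400 µg/ml, and 5 µg of total RNA was labelled per array. SDHB encodes the iron-sulfur subunit of succinate dehydrogenase, and its own signal was not analysed here. Each group is 1 clone, so silencing and clone cannot be told apart. The labels do not tell whether the 3 arrays of a clone stand for separate cultures, so every p-value reflects array-to-array spread that may be technical.

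All of these proteases carry, or derive from proteins that carry, a catalytic zinc ion. Matrix metalloproteinases (MMPs) cut collagens, laminins, proteoglycans and other proteins outside the cell, and are made as inactive precursors that other proteases such as furin or plasmin open. ADAMs are membrane proteins that mostly release the outer parts of other membrane proteins, a step called shedding, while ADAMTS enzymes are secreted and act on proteoglycans, procollagens and von Willebrand factor. ADAMTS-like proteins have no protease domain and sit in microfibrils. The 4 tissue inhibitors of metalloproteinases (TIMPs) bind the active site, and TIMP2 bound to MMP14 also serves as the docking site on which the precursor of MMP2 is activated.

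Signals are MAS5 values on a linear scale, which compare 1 probe set between arrays but not the level of 1 gene with that of another. The brightest of a gene's probe sets over all arrays stood for the gene. The array-wise 95th percentile of 107 probe sets of olfactory receptor genes, a family not expected in a liver line, lay between 84 and 121.9 and was taken as background. A member counted as above background in a clone where it exceeded that limit on all 3 of its arrays. By this measure 27 of the 71 members were above background in at least 1 clone: 19 in both, 4 in pU6-2 alone and 4 in D20 alone. The other 44 were not above background in either clone. The filter on dim probe sets left 43 members in the test, and for 28 the signal was too low to be tested, with a median array signal of 22.8 and a highest of 125.4. The untested members include the collagenases MMP1, MMP8 and MMP13, the gelatinase MMP2 and the procollagen protease ADAMTS2. MMP2 had signals of 3.4, 114.7 and 70.6 in pU6-2 and of 10.6, 37.6 and 80 in D20, which overlap and stay near background.

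Of the 43 members tested, 15 were higher in D20 and 3 lower, while 25 did not pass the test (limma, Benjamini-Hochberg adjusted over all probe sets). This is 34.9% higher and 6.98% lower, against 23.7% higher and 20.8% lower among the 13781 genes tested. The filter used the mean over all 6 arrays, so a gene could pass it through 1 clone alone. ADAM21 (means of 40 in pU6-2 and 109.9 in D20) and ADAMTS15 (24.7 and 109.1) passed through D20 and were called higher. With no filter on dim probe sets 12 members were higher and 3 lower. The median log2 fold change, D20 over pU6-2, was 0.49 over the tested members and 0.04 over all tested genes. By fitted values 11 of the 43 members were called at least 2-fold higher, where the share among all genes was 10.8%. Another 2 were called at least 2-fold lower, where the share was 6.57%. Of the 11, 3 (ADAM11, ADAM21 and ADAMTS15) were not above background in either clone. ADAMTS6 and MMP17 were not above background in pU6-2, and against the background limits their rise was at least 1.74-fold and 1.81-fold. The 3 arrays of D20 lay entirely above those of pU6-2 for 17 tested members and entirely below for 3, shares of 39.5% and 6.98% against 28.8% and 25.3% of all genes. These members were chosen with results of these data known, and no test of the whole set was made. Scaling bears on the balance of calls: 53.5% of all called probe sets were higher in D20 as deposited, 40.9% after median centring and 75.7% after scaling on spike-in controls, which moved the median of all probe sets from 0.03 to 0.27. The members called were then 14 higher and 4 lower, and 19 higher and 2 lower. By family, 3 MMPs rose and 1 fell of 11 tested, 7 ADAMs rose and 0 fell of 14, 3 ADAMTS genes rose and 2 fell of 13, and 2 TIMPs rose and 0 fell of 4. The 1 ADAMTSL gene tested, ADAMTSL4, did not pass.

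**Figure D1:**
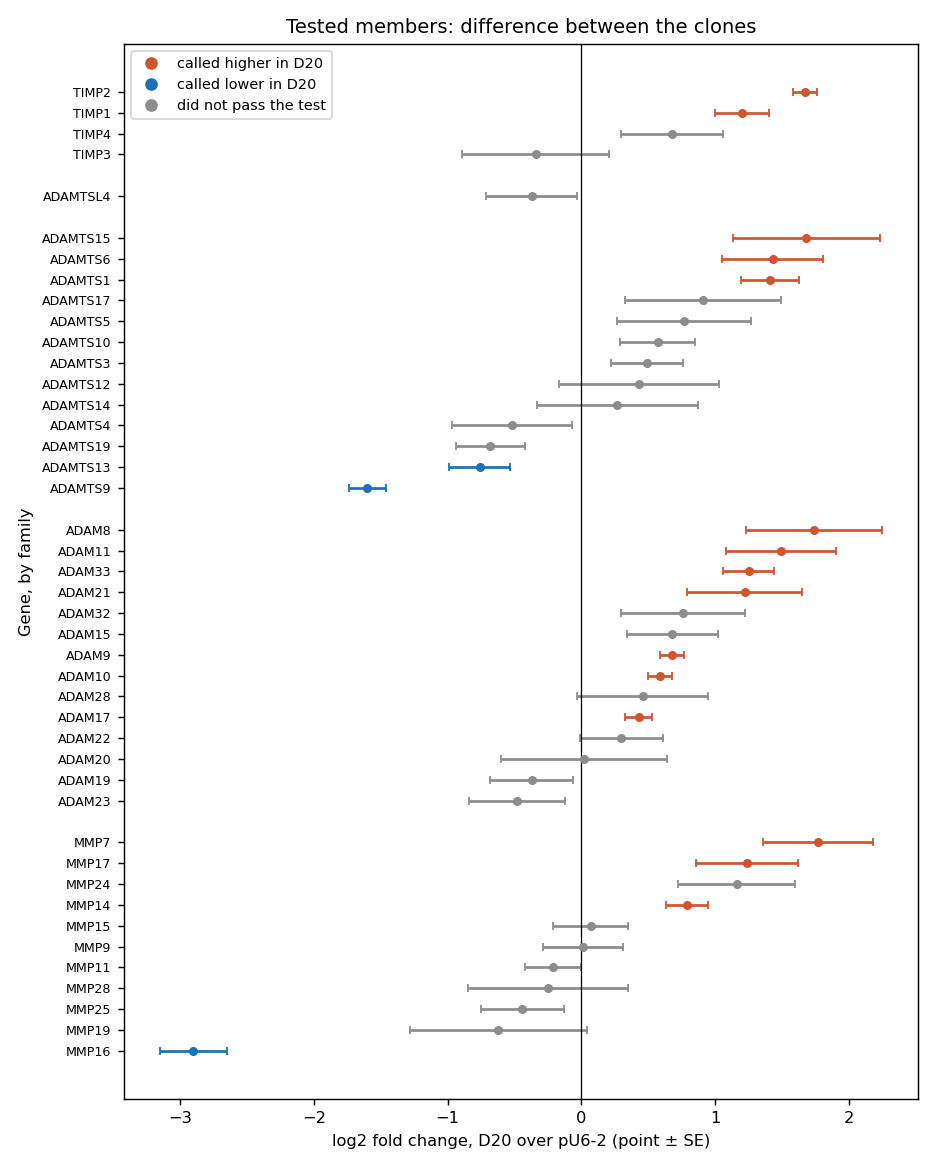
Log2 fold change, D20 over pU6-2, with its standard error, for each of the 43 members tested, grouped by family along the vertical axis. The 15 called higher extend from 0.43 (ADAM17) to 1.77 (MMP7), and the 3 called lower from -0.76 (ADAMTS13) to -2.90 (MMP16).

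Median signals did not overlap between the clones, each D20 array being brighter. The median signal was 77.5 to 83.9 in pU6-2 and 85.9 to 92.2 in D20, and the part of that gap in the results beyond the scalings tried was not tested. The 3' over 5' signal ratio was 1.08 to 1.15 and 1.11 to 1.25 for GAPDH and 1.42 to 1.9 and 1.4 to 1.68 for ACTB, ranges that overlap. Of 12 hepatocyte markers 12 were above background in pU6-2 and 11 in D20, where CPS1 was not. Of these 9 fell and 2 rose, and their summed signal was 251315.1 to 259272.1 in pU6-2 and 114506.7 to 127501.7 in D20. Fibroblast markers were above background for 3 of 8 genes in pU6-2 and 1 of 8 in D20, with COL1A2, COL3A1, DCN, THY1 and POSTN at background in both, and summed signals of 1242.7 to 1407.8 and 762.3 to 1036.5. Of 6 blood markers 1 (CD14) was above background in pU6-2 and 0 in D20, with PTPRC, CD3D and CD3E at background and summed signals of 303.0 to 546.9 and 284.7 to 389.1. Of 5 endothelial markers PECAM1 alone was above background, in D20, with CDH5, VWF, KDR and TEK at background. All 4 biliary markers were above background in both clones. KRT19 (log2 fold change 0.39, adjusted p = 0.019) and EPCAM (0.41, adjusted p = 0.0021) were called higher in D20 and SOX9 (-0.65, adjusted p = 8.9e-05) lower. KRT7 did not pass (-0.28, adjusted p = 0.55). The part of these marker differences in the protease results was not tested. In RNA from a whole culture, fewer cells of a type and less RNA per cell cannot be told apart.

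Among the inhibitors, TIMP2 and TIMP1 rose and TIMP3 and TIMP4 did not pass. TIMP2, which also takes part in activating the MMP2 precursor, had signals of 2539.9, 2633.1 and 2913.1 in pU6-2 and of 8232.9, 9039.2 and 8522.3 in D20. The groups lay far apart, at 2695.4 ± 194.2 (SD, n = 3) and 8598.1 ± 408.5 (SD, n = 3), which is 3.18-fold higher in D20, with a log2 fold change of 1.67 ± 0.09 (SE) and an adjusted p of 1.5e-08. The other 2 probe sets of TIMP2 were called higher as well, with log2 fold changes of 1.39 and 0.62. TIMP1, a secreted inhibitor of most MMPs that is induced by growth factors, had signals of 354.7, 459.4 and 253.0 in pU6-2 and of 850.1, 887.8 and 720.6 in D20. Every D20 array lay above every pU6-2 array, with a log2 fold change of 1.20 ± 0.20 (SE) and an adjusted p of 4.0e-04. TIMP3, which is held in the matrix and is the TIMP that inhibits ADAM17, stayed around background at 69, 83.4 and 45.4 in pU6-2 and 15.8, 49.2 and 108.5 in D20. Its log2 fold change of -0.34 ± 0.55 (SE) did not pass the test (adjusted p = 0.68), and it was 0.17 without D20 replicate A. The log2 fold change of TIMP4 was 0.68 ± 0.38 (SE, adjusted p = 0.19), at signals of 55.5 to 109.4 in pU6-2 and 89.9 to 178.5 in D20.

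**Figure D2:**
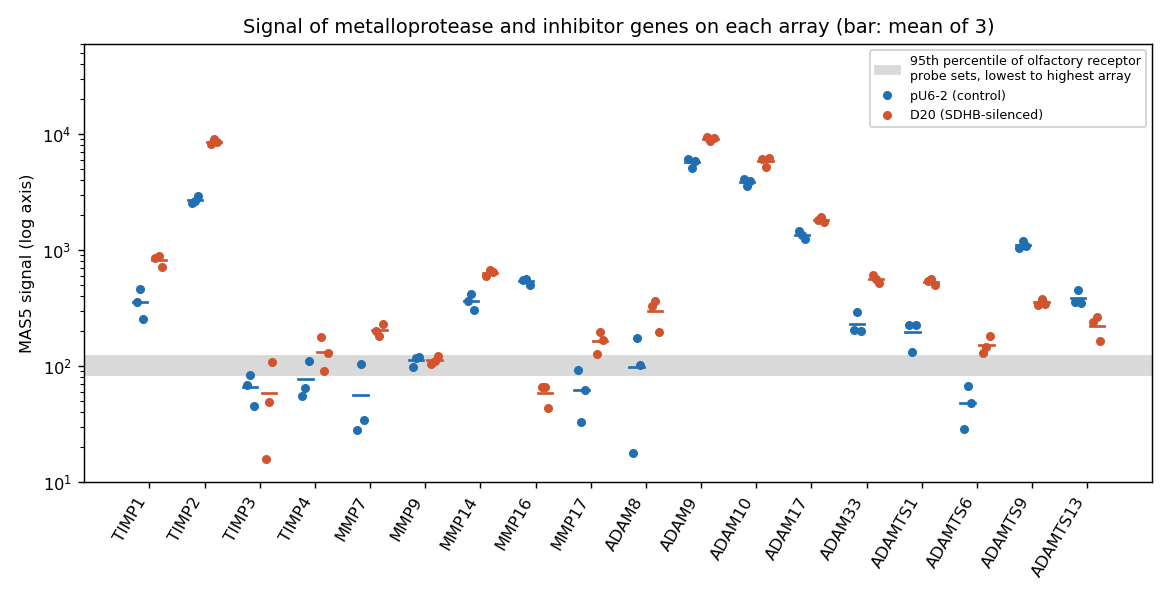
MAS5 signal (log axis) of 18 members on each of the 3 arrays of pU6-2 and the 3 of D20, with a bar at each mean and a grey band from 84 to 121.9 for background. TIMP2, ADAM9 and ADAM10 sit high in both clones and higher in D20, MMP16 falls from a pU6-2 mean of 536.0 to below the band, and MMP7 rises from 27.8, 34.4 and 104.8, with 2 arrays below the band, to 180.0 and more.

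Of the membrane-type MMPs, which are held at the cell surface, MMP14 and MMP17 rose and MMP16 fell, while MMP15, MMP24 and MMP25 did not pass. MMP16, a transmembrane protease related to MMP14, had the largest fitted log2 fold change in size of the 43 members tested. Its signals were 548.9, 563.8 and 495.4 in pU6-2 and 66.4, 65.8 and 43.3 in D20. It was thus above background on each pU6-2 array and below it on each D20 array. Since the D20 level is not measured, only a bound can be given: MMP16 was at least 5.46-fold lower in D20, taking for each D20 array the higher of its background limit and the signal. Bounds given for other genes above background in 1 clone were made the same way. The fitted log2 fold change was -2.90 ± 0.25 (SE), with an adjusted p of 1.4e-06. A second probe set fell by 1.47 on the log2 scale, and another at -0.48 did not pass (adjusted p = 0.59), so that the mean over the probe sets gave -1.62. The size also moved with the pseudocount, to -3.20 with 1 and -2.30 with 64.

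MMP14, which cuts collagen at the cell surface and activates MMP2, had signals of 365.5, 416.5 and 304.0 in pU6-2 and of 594.0, 670.8 and 642.2 in D20. The clones did not overlap, and the difference was 1.73-fold, with a log2 fold change of 0.79 ± 0.16 (SE) and an adjusted p of 0.0020. Of its 3 other probe sets 2 were called higher, at 0.68 and 1.61, and the remaining one, at 1.28, did not pass. MMP17, which is attached by a lipid anchor, went from 92.4, 32.9 and 62.3 to 126.8, 194.6 and 167.0, above background in D20 alone (at least 1.81-fold higher). Its log2 fold change of 1.24 ± 0.38 (SE, adjusted p = 0.022) lost the call without pU6-2 replicate B (0.94, adjusted p = 0.072), without D20 replicate B (1.12, adjusted p = 0.075), without D20 replicate C (1.22, adjusted p = 0.062) and with no filter on dim probe sets (adjusted p = 0.059). For MMP24 the arrays did not overlap, but its log2 fold change of 1.16 ± 0.44 (SE) missed the threshold (adjusted p = 0.057).

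Among the secreted MMPs, MMP7 was the one called. MMP7, also called matrilysin, is a small protease without a hemopexin domain that epithelial cells make. Its signals were 27.8, 104.8 and 34.4 in pU6-2, where 1 array reached background level, and 201.0, 180.0 and 230.9 in D20, above background on all 3. MMP7 was at least 2.22-fold higher in D20, with a fitted log2 fold change of 1.77 ± 0.41 (SE) and an adjusted p of 0.0043. MMP9, a gelatinase, had signals of 98.3, 117.6 and 120.5 in pU6-2 and of 104.8, 111.1 and 122.8 in D20. All 3 pU6-2 arrays exceeded their limit and 2 of the D20 arrays did, so that MMP9 counted as above background in pU6-2 alone, although the values overlapped. Its log2 fold change was 0.01 ± 0.30 (SE, adjusted p = 0.98), and its sign turned with quantile normalization and with median centring (-0.12 in each). MMP11, a stromelysin that furin activates inside the cell, was above background in both clones at 542.0, 753.4 and 711.9 in pU6-2 and 568.5, 783.0 and 413.1 in D20. These values overlapped, and its log2 fold change of -0.21 ± 0.21 (SE) did not pass (adjusted p = 0.48) and was 0.04 with spike-in scaling.

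MMP7 lies in a run of 9 adjacent MMP genes on chromosome 11, with MMP20, MMP27, MMP8, MMP10, MMP1, MMP3, MMP12 and MMP13. None of the other 8 was above background in either clone or bright enough to be tested, with a highest signal of 100.3 in pU6-2 and 76.5 in D20. The 10 tested genes nearest to MMP7 outside the family had a median log2 fold change of 0.62, with 4 of them called higher and 0 lower. Among all tested genes 23.7% were higher and 20.8% lower, and the part of the region in the rise of MMP7 was not tested.

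Promoter sequences of RefSeq (GRCh38.p14), each 250 bases before to 50 bases after the annotated start, were found for 41 of the 71 members. Those of MMP7, of MMP10, a dim gene of the same run, and of TIMP1 and MMP14, which rose from levels above background, are shown. The first pair differs from the second in the elements searched for. Capitals mark TGANTCA (N is any base), a loose form of the site AP-1 binds that is called the AP-1 element here, a TATAAA box or a GGGCGG GC box. Both strands were searched (CCGCCC is the GC box on the other strand). Variants with other letters, such as tgagtaa in TIMP1, were not searched for and are not marked. MMP7 lies at chr11:102530698-102530997 (minus strand), MMP10 at chr11:102780579-102780878 (minus strand), TIMP1 at chrX:47582186-47582485 (plus strand) and MMP14 at chr14:22836335-22836634 (plus strand).
MMP7: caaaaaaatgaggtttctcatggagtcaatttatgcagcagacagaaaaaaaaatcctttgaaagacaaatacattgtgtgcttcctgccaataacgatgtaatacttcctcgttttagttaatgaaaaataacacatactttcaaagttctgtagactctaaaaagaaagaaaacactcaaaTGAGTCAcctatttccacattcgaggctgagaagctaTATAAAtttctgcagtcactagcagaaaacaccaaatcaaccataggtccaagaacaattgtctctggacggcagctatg
MMP10: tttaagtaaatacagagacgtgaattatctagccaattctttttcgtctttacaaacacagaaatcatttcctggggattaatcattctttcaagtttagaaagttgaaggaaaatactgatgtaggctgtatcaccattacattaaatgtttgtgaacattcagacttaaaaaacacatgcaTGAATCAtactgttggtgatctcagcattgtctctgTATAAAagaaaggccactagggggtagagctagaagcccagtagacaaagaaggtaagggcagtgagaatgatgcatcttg
TIMP1: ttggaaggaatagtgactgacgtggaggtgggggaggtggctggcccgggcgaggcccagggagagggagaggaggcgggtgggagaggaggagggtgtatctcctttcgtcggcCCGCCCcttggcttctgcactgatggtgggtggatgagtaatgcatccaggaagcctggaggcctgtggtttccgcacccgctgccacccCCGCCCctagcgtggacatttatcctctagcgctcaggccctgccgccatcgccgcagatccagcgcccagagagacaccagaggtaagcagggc
MMP14: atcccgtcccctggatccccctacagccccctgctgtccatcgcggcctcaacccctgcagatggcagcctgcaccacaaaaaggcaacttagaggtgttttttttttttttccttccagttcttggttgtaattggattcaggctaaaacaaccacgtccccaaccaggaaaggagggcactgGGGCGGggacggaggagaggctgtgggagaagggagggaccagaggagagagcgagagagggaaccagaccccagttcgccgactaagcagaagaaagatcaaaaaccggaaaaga
MMP7 and MMP10 have a similar layout, with an AP-1 element starting 67 bases before the start in both. Its letters are TGAGTCA in MMP7 and TGAATCA in MMP10. The TATA box starts 30 bases before the start in MMP7 and 31 in MMP10. MMP10 was too dim to be tested, with signals of 36.2, 8.4 and 24.7 in pU6-2 and of 6.7, 5 and 3.4 in D20. TIMP1 holds 2 GC boxes, starting 135 and 45 bases before the start, and MMP14 holds 1, starting 66 bases before it. Among the members with a sequence, 4 (9.76%) held the AP-1 element, 9 (22%) the TATA box and 28 (68.3%) the GC box, against 7.71%, 11.5% and 45% of 35116 promoters. Members had 1 promoter per gene, and the 35116 were not reduced in this way. Of the 8 members called higher that have a sequence, 1 held the AP-1 element (MMP7), 2 the TATA box and 5 the GC box. In ADAM21 the TATA box lay 39 bases after the start. Of 15 untested members 6 held the TATA box, and of 17 that did not pass 15 held the GC box. A match describes these letters and does not show binding.

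Of the 14 ADAMs tested, 7 were higher in D20 and 0 lower, and among the 12 with a protease site 6 rose of 10 tested, against 23.7% higher and 20.8% lower of all tested genes. ADAM9, ADAM10 and ADAM17, broadly expressed sheddases, had the brightest ADAM probe sets in both clones and rose by less than 2-fold. ADAM9 had signals of 6162.1, 5119.8 and 5827.4 in pU6-2 and of 9372.1, 8765.0 and 9181.1 in D20, with a log2 fold change of 0.68 ± 0.09 (SE, adjusted p = 4.8e-05). Every D20 array was above every pU6-2 array, and a second probe set gave 1.06.

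ADAM10, the main sheddase of Notch receptors and E-cadherin, had signals of 4082.0, 3595.6 and 3965.3 in pU6-2 and of 6101.4, 5202.8 and 6223.1 in D20. Its log2 fold change was 0.59 ± 0.09 (SE, adjusted p = 3.2e-04), and its 2 other probe sets were also called higher, at 1.07 and 0.95. ADAM17, which releases tumour necrosis factor and ligands of the EGF receptor, went from 1454.4, 1353.8 and 1254.8 to 1809.4, 1915.2 and 1752.0. This was the smallest change called among the members, with a log2 fold change of 0.43 ± 0.10 (SE, adjusted p = 0.0058), and the 2 other probe sets of ADAM17, at 0.22 and 0.92, did not pass. Both ADAM10 and ADAM17 kept their calls in all 18 alternative settings.

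**Figure D3:**
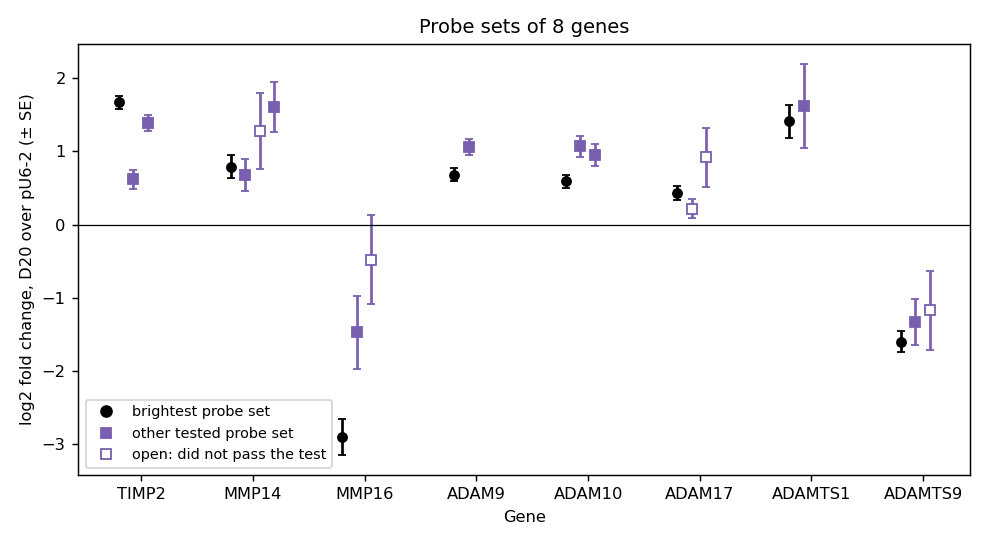
Log2 fold change, D20 over pU6-2, with its standard error, for every tested probe set of 8 members, with the brightest probe set in black and open symbols for probe sets that did not pass the test. All tested probe sets of a gene lie on the same side of 0, while their size differs, from 0.62 to 1.67 for TIMP2 and from -0.48 to -2.90 for MMP16.

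ADAM33 and ADAM8 rose from lower signals. ADAM33, known as a gene linked to asthma, had signals of 206.0, 289.6 and 200.4 in pU6-2 and of 608.4, 566.1 and 523.4 in D20, with no overlap, a log2 fold change of 1.25 ± 0.19 (SE) and an adjusted p of 2.2e-04. This probe set is of a kind that can match other transcripts, and the other probe set of ADAM33 was too dim to be tested. ADAM8, best known from leukocytes, went from 17.7, 173.2 and 102.0 to 328.7, 362.2 and 197.5. Its pU6-2 arrays were widely spread, 2 of them above the background limit, and it was at least 2.50-fold higher in D20. Its log2 fold change of 1.74 ± 0.51 (SE, adjusted p = 0.018) lost the call without the variance trend (adjusted p = 0.098) and when D20 replicate A (1.64, adjusted p = 0.065) or B (1.58, adjusted p = 0.064) was left out. Without pU6-2 replicate A it was 1.02 (adjusted p = 0.032). Of the 6 blood markers, CD14 was above background, at 123.1 to 180.9 in pU6-2 and 63.3 to 127.5 in D20. Its part in the values of ADAM8 was not tested.

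ADAM11, which has no active protease site and is a neural adhesion protein, and ADAM21, a gene of the testis, were called higher although neither was above background on all arrays of a clone. ADAM11 had signals of 32.9, 44.9 and 56.9 in pU6-2 and of 203.4, 195.8 and 88.5 in D20 (log2 fold change 1.49), and missed the threshold when D20 replicate A (1.31, adjusted p = 0.063) or B (1.33, adjusted p = 0.051) was left out. ADAM21 had signals of 60.1, 38.4 and 21.5 in pU6-2 and of 117.7, 91.6 and 120.5 in D20 (log2 fold change 1.22, adjusted p = 0.042). The call for ADAM21 was lost in 12 of 17 alternative settings, among them with median centring (adjusted p = 0.065) and without any 1 array other than pU6-2 replicate A (adjusted p from 0.057 to 0.13). Among the ADAMs that did not pass, ADAM15 and ADAM22 were above background in both clones, with log2 fold changes of 0.68 (adjusted p = 0.15) and 0.30 (adjusted p = 0.49).

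ADAMTS genes moved both ways. ADAMTS9, a secreted protease that cuts the proteoglycan versican, had signals of 1046.0, 1189.4 and 1079.7 in pU6-2 and of 335.7, 379.3 and 343.1 in D20. It was above background in both clones and 3.04-fold lower in D20, with a log2 fold change of -1.60 ± 0.14 (SE) and an adjusted p of 1.3e-06. A second probe set fell by 1.33 on the log2 scale, and another at -1.17 did not pass (adjusted p = 0.11). ADAMTS1, which also cuts versican and aggrecan, moved the other way, from 224.0, 132.4 and 227.4 to 536.0, 557.8 and 498.4. Its log2 fold change was 1.41 ± 0.22 (SE, adjusted p = 2.5e-04), with a second probe set called at 1.62.

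The level of ADAMTS1 less that of ADAMTS9, within each array on the log2 scale, lay between -3.02 and -2.15 in pU6-2 and between 0.52 and 0.65 in D20. The pair was taken because its members were called in opposite directions, so this is a description with no test, and it does not say which of them is more abundant. TIMP2 less MMP14, both called higher, lay between 2.61 and 3.19 in pU6-2 and between 3.70 and 3.76 in D20, also a pair taken after values were seen.

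ADAMTS6, which acts on microfibrils, was above background in D20 alone, with signals of 28.3, 66.9 and 48.1 in pU6-2 and of 128.9, 144.3 and 182.5 in D20. The clones did not overlap, and ADAMTS6 was at least 1.74-fold higher in D20, with a fitted log2 fold change of 1.43 ± 0.38 (SE, adjusted p = 0.010). ADAMTS13, the protease that trims von Willebrand factor and that is made in the liver, fell from 354.8, 451.5 and 349.8 to 240.2, 266.2 and 162.8. The clones did not overlap, and the log2 fold change was -0.76 ± 0.23 (SE, adjusted p = 0.018). That call was lost with spike-in scaling (-0.52, adjusted p = 0.10), on averaging its probe sets (-0.51, adjusted p = 0.17), without pU6-2 replicate B (-0.65, adjusted p = 0.078) and without D20 replicate C (-0.57, adjusted p = 0.061). Of the 10 nearest tested genes of ADAMTS13 on chromosome 9, 7 were called lower and 1 higher, with a median log2 fold change of -0.67. Among all tested genes 20.8% were lower and 23.7% higher. The part of the region in the fall of ADAMTS13 was not tested.

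ADAMTS15 was called higher at background level, from 44.4, 4.7 and 25 to 62.4, 155.7 and 109.1 (log2 fold change 1.68, adjusted p = 0.029). It did not pass without pU6-2 replicate B (1.26, adjusted p = 0.086), pU6-2 replicate C (1.75, adjusted p = 0.053), D20 replicate B (1.41, adjusted p = 0.12) or D20 replicate C (1.64, adjusted p = 0.083), or with no filter on dim probe sets (adjusted p = 0.052). ADAMTS10, among the 6 brightest members in D20, had signals of 264.2 to 602.9 in pU6-2 and of 516.1 to 876.6 in D20. It did not pass (0.57, adjusted p = 0.13) but was called with spike-in scaling (0.82, adjusted p = 0.020). Neither ADAMTS19 (-0.68, adjusted p = 0.064) nor ADAMTS3, which cuts procollagens (0.49, adjusted p = 0.18), passed the test. ADAMTSL4, a microfibril protein, had signals above background in both clones and a log2 fold change of -0.37 (adjusted p = 0.43).

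The probe sets of a member were not called in opposite directions. Of the 18 called members 11 had another tested probe set, for 7 of these at least 1 was called the same way and for 0 the opposite way, and 7 had no other tested probe set. Genes beside the called members were looked at as well. For the 15 members that rose, the median log2 fold change of the 10 nearest tested genes was between -0.28 (TIMP1) and 0.62 (MMP7). For ADAMTS9 that median was -0.46, with 4 of 10 lower, and for MMP16 -0.01, with 2 lower and 2 higher. The shares among all tested genes were 20.8% lower and 23.7% higher.

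Genes that work with the members were followed in 6 lists of partners, regulators and substrates. Of 114 such genes on the array 93 were tested, and 41 rose and 25 fell. The shares among all tested genes, 23.7% higher and 20.8% lower, are the background against which each list's counts stand. Listed genes, too, could pass the filter on dim probe sets through 1 clone alone. Among them, PCSK5, PLAU and COL1A1 (pU6-2 means of 27.6, 18 and 1.23) passed through D20, and NRG1 (D20 mean of 6.73) through pU6-2. The list most shifted upward was that of basement membrane and matrix substrates of MMPs, with 9 of 13 tested genes higher and 2 lower and a median log2 fold change of 1.27. Of those called higher, COL4A2, COL4A3, COL4A4 and LAMB3 had pU6-2 means of 27.6, 20.8, 23.7 and 39.1. These lie under the filter signal of 43.2, so the genes were tested through D20 alone. COL4A2 and SPP1 (88.1 to 172.6 in D20, adjusted p = 0.047) were called higher although not above background in either clone. COL4A4 (3.11) and COL4A3 (2.91), chains of type IV collagen, and LAMB3 (2.22), a laminin chain, rose from signals at background to between 150.4 and 400.5 on the D20 arrays, at least 2.77-fold, 2.78-fold and 2.58-fold higher. Averaging its probe sets gave 1.97 for COL4A3. NID1, which links laminin to collagen IV, fell by 1.80 on the log2 scale.

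Partners that carry ADAMs to the cell surface or act beside them rose in 6 and fell in 2 of 13 cases, with a median of 0.25. FHL2 (4.04), an adaptor that binds ADAM17, went from 35 to 70.6 in pU6-2 to 1104.6 to 1184.8 in D20, at least 13.34-fold higher. SH3PXD2B (1.86), an adaptor of invadopodia, and TSPAN15 (1.81), a tetraspanin that pairs with ADAM10, rose too. The related adaptor SH3PXD2A fell by 1.01 on the log2 scale, from 1209.1 to 1410.6 in pU6-2 to 548.4 to 747.9 in D20 (adjusted p = 9.5e-05). RHBDF2, the inactive rhomboid that brings ADAM17 to the surface, was at 1.63, whereas FRMD8, which stabilises that complex, fell by 0.53 on the log2 scale (SH3PXD2A, RHBDF2 and FRMD8 were chosen after their values were seen).

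Activators of MMPs and inhibitors other than TIMPs had 7 of 14 tested genes higher and 4 lower, with a median of 0.49. PCSK5 (4.99), a proprotein convertase, and SPOCK3 (3.62), a testican, rose from background, at least 13.89-fold and 10.65-fold. A2M, a broad protease inhibitor of blood plasma, fell from 28238.2 to 29720.8 in pU6-2 to 539.1 to 651.7 in D20 (log2 fold change -5.57, or -2.53 when its probe sets were averaged). For RECK, a membrane inhibitor of MMPs, the log2 fold change was 0.07 ± 0.18 (SE, adjusted p = 0.79).

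Shedding substrates of ADAM10 and ADAM17 rose in 9 and fell in 7 of 21 cases, with a median of 0.33. NOTCH3 (2.91), a Notch receptor, and EREG (1.74), a ligand of the EGF receptor, rose. NRG1, a ligand of ERBB receptors, was at least 2.51-fold lower in D20, where it was below background. Its fitted value of -3.54 was -1.35 when its probe sets were averaged, and it did not pass once multi-transcript probe sets were dropped (-0.43, adjusted p = 0.57). Substrates of ADAMTS proteases rose in 5 and fell in 3 of 13 cases, with a median of 0.16. COL1A1, a chain of type I collagen, was at 0.7 to 1.7 in pU6-2, below background, and at 3439.5 to 4230.5 in D20, at least 43.57-fold higher. Its fitted value of 7.78 was 5.88 and 10.75 with pseudocounts of 64 and 1, and 3.33 when its probe sets were averaged. FBN2 (2.86, or 2.18 when averaged), a fibrillin, rose and BGN (-2.31), biglycan, fell. VCAN, versican, which ADAMTS1 and ADAMTS9 cut, was at background in both clones.

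Transcription factors known at MMP promoters rose in 5 and fell in 7 of 19 cases, with a median of -0.20. JUNB (2.06), a subunit of AP-1, rose, and SP1 (-1.58), which binds GC boxes, and ETV5 (-1.56, or -0.78 when averaged), an ETS factor, fell. SP1 changed by -1.0 when its probe sets were averaged. Other AP-1 subunits went both ways: FOSL2 was called higher (0.89, adjusted p = 0.048) and JUND lower (-0.20, adjusted p = 0.048). FOS (-0.44, adjusted p = 0.32), JUN (-0.27, adjusted p = 0.054) and FOSL1 (-0.14, adjusted p = 0.86) did not pass.

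**Figure D4:**
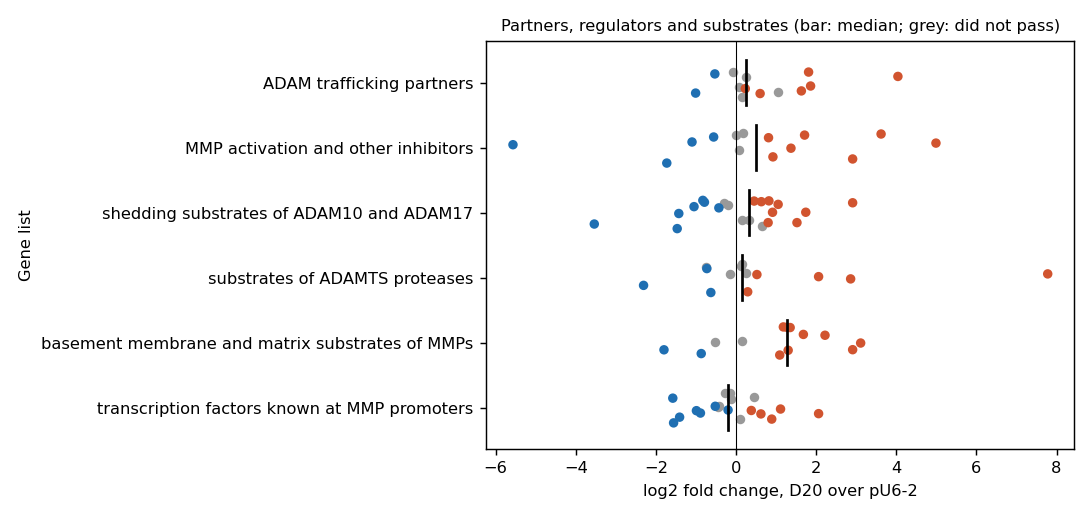
Log2 fold change, D20 over pU6-2, of each tested gene in the 6 lists, with called genes in red (higher) or blue (lower), others in grey and a bar at each list's median. The medians run from -0.20 for the transcription factors to 1.27 for the basement membrane and matrix substrates, and all lists hold genes on both sides of 0.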

How the data were processed

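The authors deposited 1 intensity per probe set and array, computed with MAS5 per the submitters' processing notes. Neither version nor scaling target is given in the sources used here. Names came from GEO's annotation of the platform, brought up to date with the RefSeq table of GRCh38.p14, giving 41091 probe sets with 1 gene symbol, 1801 with several and 11721 with none listed. Of 54675 probe sets, 62 controls and the dimmest 40% of the rest (below a back-transformed mean signal of 43.2) were left out, and 32768 were tested. On log2(signal + 16), which understates fold changes of dim genes, the clones were compared by limma 3.58.1 in R 4.3.3 (eBayes, variance trend on). Tests were two-sided, and p-values were adjusted by Benjamini and Hochberg's method across the probe sets tested, at a threshold of 0.05. The fit was tested on simulated data. Precision is limited by the number of arrays.

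The genes given values are the up to 16 called members above background with the largest change, the TIMPs, the 6 brightest members of each clone, ADAM10, ADAM17, MMP2, MMP9 and MMP14, the other called members and up to 3 called genes per list. Members just beside a threshold and a few further genes were added after their values were seen. Members and lists were chosen with earlier results of these data known. Alternatives were the pseudocount, filter, scaling, choice of probe set, variance model, replicate block and each array left out.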

Additional observations from a re-analysis of the deposited data

How the results depend on the processing

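The 15 members higher and 3 lower became 10 to 15 higher and 2 to 4 lower when 1 array was left out. Only 9 were higher with the lowest 60% of probe sets left out, since fewer members were tested, and 3 with an unequal-variance test without moderation, where 24 and 13 context genes were higher and lower against 41 and 25, and 2572 and 2141 probe sets against 6397 and 5555. With multi-transcript probe sets dropped, 11 members were higher and 3 lower, and 26 and 16 context genes were higher and lower. ADAM8, ADAM33, ADAMTS1 and MMP17 had no tested probe set left in that setting, and the log2 fold change of TIMP2 was 1.39. With spike-in scaling 9648 probe sets were higher and 3097 lower. Members above background were 27, or 30 and 22 with the 90th and 99th percentile, and 43 passed the filter on dim probe sets alone. Arrays that share a letter did not deviate together (correlations of -0.021, 0.052 and 0.007), so the letters were not taken as pairs. With the replicate block 15 members were still counted higher and 3 lower, with ADAM21 at an adjusted p of 0.058, and 6658 probe sets were higher and 5899 lower. Of the 18 called members, 5 (MMP16, TIMP2, ADAMTS9, ADAM10 and ADAM17) kept their call in all 18 settings, 7 lost it only under the unequal-variance test and 6 elsewhere. Among those 7, MMP7, ADAMTS6, ADAMTS1 and ADAM33 could be tested in only 17 settings. MMP7 and ADAMTS6 fell below the stricter filter, and ADAMTS1 and ADAM33 had multi-transcript probe sets alone. Signs turned for members that were not called: TIMP3 (0.17 without D20 replicate A), MMP11 (0.04 with spike-in scaling, 0.01 without D20 replicate C) and MMP9 (-0.12 with quantile normalization and with median centring, -0.07 without pU6-2 replicate A, -0.04 without D20 replicate C). Over the arrays left out in turn these ranged from -0.82 to 0.17 (TIMP3), -0.44 to 0.01 (MMP11) and -0.07 to 0.06 (MMP9). The signal over background limits the members at or near background, 44 of 71.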
